A study of Mus musculus with 39 samples.

Results

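Liver and skeletal muscle of the same kind of mouse were compared gene by gene: 5 liver and 5 muscle libraries from female Ins1-/-;Ins2+/+ mice fed diet A, which are 10 of the 39 RNA sequencing libraries of the study. The libraries were chosen by their labels for tissue, genotype and diet, and no measured value entered that choice. Every animal in the study was Ins1-/-, without the first of the genes for insulin, so these mice had Ins2 as their only insulin gene, on both chromosomes. They had a mixed C57BL/6 and 129 background, were 25 weeks old and were killed after a fast of 4 h. Diet A (LabDiet 5LJ5) was a moderate-energy chow of 4.68 kcal per g, with 25% of calories from fat, 55% from carbohydrate and 20% from protein. The muscle was the triceps surae, the calf group formed by gastrocnemius and soleus, taken whole, so fast and slow fibres, tendon, nerve, vessels and fat within it were sequenced together. The other groups used for comparison were Ins1-/-;Ins2+/- mice on diet A (5 livers and 5 muscles), Ins1-/-;Ins2+/+ mice on diet B (4 livers and 5 muscles) and Ins1-/-;Ins2+/- mice on diet B (5 livers and 5 muscles), diet B being a high-energy food with 58% of calories from fat. The labels do not say whether a liver and a muscle with the same number came from the same mouse.

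Liver and skeletal muscle take up most of a meal's glucose, and they handle it in opposite ways. The hepatocyte can release glucose again, makes ketone bodies, bile acids, urea and nearly all plasma proteins, and takes up glucose through a transporter that does not wait for insulin. The muscle fibre takes up glucose when insulin or contraction brings its own transporter to the surface, keeps its glycogen for itself, and spends its fuel on the contractile filaments and on pumping calcium. Many steps of metabolism are therefore run by enzymes encoded by separate genes in the 2 organs, called isozymes, while ribosomes, proteasomes and the splicing machinery come from one common set of genes.

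The libraries held 2413873 to 5022010 estimated counts in liver and 3478952 to 5399372 in muscle. Transcripts of the mitochondrial genome took 7.43% to 8.32% of counts in liver and 16.9% to 21.6% in muscle. Muscle RNA was spread over fewer genes: the most abundant 132 to 180 genes reached 50% of counts in each liver, against 52 to 90 in each muscle. Across genes, log2 levels of 2 livers had a Pearson r of 0.961 to 0.976, those of 2 muscles 0.870 to 0.943, and those of a liver and a muscle 0.183 to 0.290, genes not being independent replicates. Ins1 had 0 counts in all 10 libraries. Ins2 had 91, 1, 1, 2 and 4 counts in livers 1 to 5 and 12, 87, 4593, 33 and 3 in muscles 1 to 5. Transcripts of other islet hormones stood at 12.2 counts per 1000000 (CPM) in liver 1, 18.1 in muscle 2 and 654 in muscle 3, and under 5 CPM in the other 7 libraries. Without these 3 libraries, 3726 genes were called higher in liver and 3766 in muscle, out of 11737 tested. Listed markers of pancreatic acinar cells, which make digestive enzymes, together took 211 CPM in muscle 3. They took 2.71 to 15.3 CPM in the other muscles and 5.9 to 36.4 CPM in the livers.

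Of 11401 genes with enough counts to test, 3793 were higher in liver (33.3%) and 3904 higher in muscle (34.2%) at an adjusted p below 0.05 in edgeR's quasi-likelihood test, and 3704 were not called (32.5%). These shares over all tested genes are the background for every count of list members below. The median log2 ratio of liver over muscle across tested genes was 0.007. Differences of at least 4-fold were called for 1832 genes higher in liver (16.1%) and 1475 higher in muscle (12.9%), and 936 and 736 of them reached 16-fold. The levels of the 5 livers and the 5 muscles did not overlap for 6521 genes (57.2%). A further class of 2429 genes (21.3%), some of them among those called, is named of like level here, meaning that the 95% interval of their ratio lay inside 2-fold either way and that both tissues averaged at least 10 CPM, and 706 of them still passed the test for a difference. A gene without a call and without that narrow interval is simply unresolved. In whole tissue, fewer cells of a type and less RNA per cell cannot be told apart, so each ratio is one of tissue RNA. Levels of single genes below are CPM after scaling unless stated, in the order of libraries 1 to 5. Summed levels of lists, and levels given as a percent of the mean in the other tissue, are by library totals without that scaling. Ratios, unless stated, are liver over muscle on the log2 scale with their standard error.

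**Figure D1:**
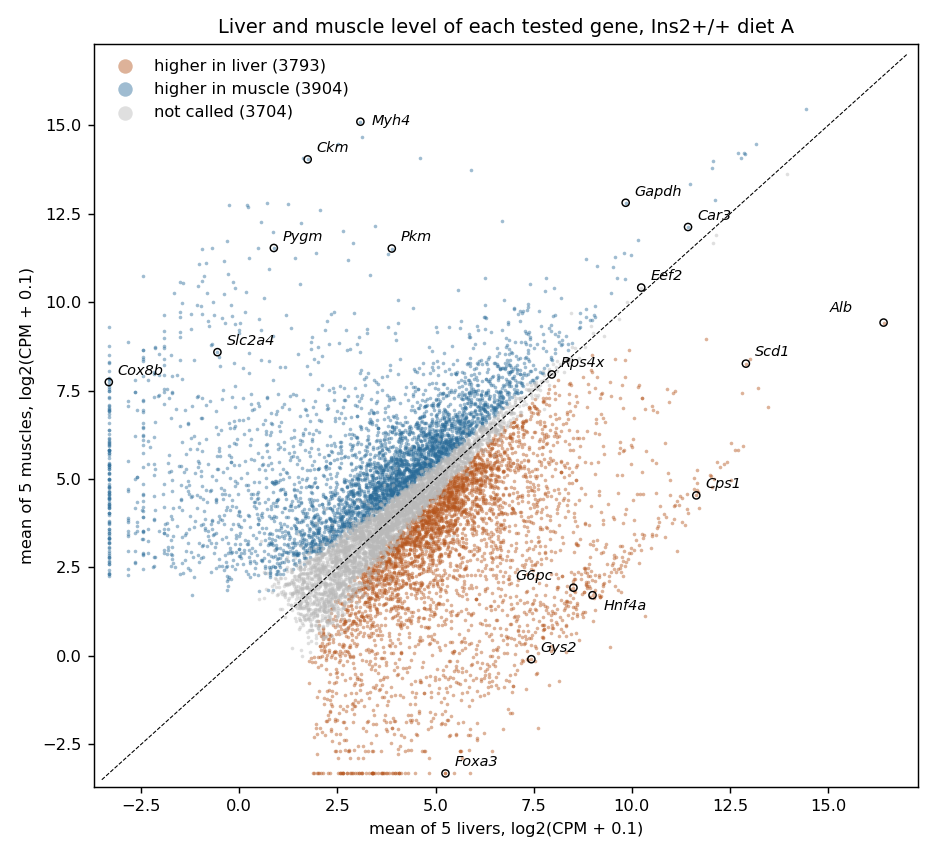
Mean level of each tested gene in 5 livers (x axis) and 5 muscles (y axis), both as log2(CPM + 0.1), with genes higher in liver, higher in muscle and not called in separate colours and the dashed line marking equal levels. Alb lies far to the right and Myh4 far to the top, while Rps4x and Eef2 lie next to the line; genes along the left and lower edges had 0 counts in every liver or every muscle.

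The sequences in front of the genes differed between the tissues' gene sets. RefSeq promoter windows of the GRCm38.p6 assembly, 250 bases before to 50 bases after the start, matched 8877 of the 11401 tested genes by symbol, including 537 of 721 genes called higher in liver by a log2 ratio of at least 5 and 429 of 563 genes called higher in muscle by as much. A set of 10 motifs was searched on both strands as exact letters. The motif GTTAATNAT stood in 6.89% of the liver windows, 0.233% of the muscle windows, 0.154% of the windows of like-level genes and 0.836% of all 27025 windows. The HNF4 site CAAAGTCCA stood in 3.54%, 0.233%, 0.308% and 0.477% of the same sets. The muscle windows held the myogenic E-box CAGCTG in 28.9%, against 14.5% of liver windows, 11.4% of like-level windows and 16.1% of all windows. They held the MEF2 site TAAAAATA in 4.66%, against 1.68%, 1.39% and 2.71%. Over the 8877 windows of tested genes the MEF2 site stood in 1.27%. The TATA box TATAAA was about as frequent in both tissue sets, 18.1% in liver and 16.8% in muscle windows. It stood in 5.65% of like-level windows, 7.65% of the windows of tested genes and 14.2% of all windows. In like-level genes the ETS site CCGGAAG was the most frequent of the 10, in 26.1% of windows. The ETS site stood in 2.42% of liver, 3.26% of muscle, 18.6% of tested-gene and 9.12% of all windows. The NRF1 site GCGCATGCG stood in 0.372% of liver, 0.932% of muscle, 5.8% of like-level, 3.8% of tested-gene and 1.81% of all windows. The MCAT site CATTCC stood in 16.9% of liver, 19.1% of muscle, 10.3% of like-level and 14.6% of all windows. The C/EBP site TTGCGCAA and the ERR site TCAAGGTCA stood in under 0.5% of every set. These are counts of letters in a short window and say nothing about binding, and no match says nothing about the factor.

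The 5 windows that follow were chosen to show these patterns beside genes described below, 1 unbroken run each from 5′ to 3′ on the gene's own strand, with the matched motifs in capitals; a match on the opposite strand appears as its reverse complement. Alb at chr5:90460620-90460919 on the plus strand holds a GTTAATNAT match starting 32 bases before the start, and G6pc at chr11:101367466-101367765 on the plus strand another at 221 and a TATA box at 29 bases before it. Myh4 at chr11:67237562-67237861 on the plus strand has an MCAT site at 231, TATA boxes at 213, 179 and 31, and an E-box at 67 bases before the start. Pgam2 at chr11:5803747-5804046 on the minus strand has an E-box at 125, a MEF2 site at 79 and an MCAT site at 1 base before the start. Rpl19 at chr11:98026460-98026759 on the plus strand, a like-level gene, has an ETS site at 39 bases before the start.
Alb: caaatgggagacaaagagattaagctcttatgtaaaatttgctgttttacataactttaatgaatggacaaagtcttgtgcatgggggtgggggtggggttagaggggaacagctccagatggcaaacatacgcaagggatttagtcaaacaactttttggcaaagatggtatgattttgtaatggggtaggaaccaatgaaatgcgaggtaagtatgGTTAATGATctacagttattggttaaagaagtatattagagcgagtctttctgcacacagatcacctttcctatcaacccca
G6pc: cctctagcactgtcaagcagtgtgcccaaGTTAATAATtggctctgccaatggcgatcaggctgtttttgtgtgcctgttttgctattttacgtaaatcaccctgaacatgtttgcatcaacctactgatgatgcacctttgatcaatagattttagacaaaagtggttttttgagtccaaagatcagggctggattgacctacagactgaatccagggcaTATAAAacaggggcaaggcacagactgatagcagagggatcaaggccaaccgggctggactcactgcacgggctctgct
Myh4: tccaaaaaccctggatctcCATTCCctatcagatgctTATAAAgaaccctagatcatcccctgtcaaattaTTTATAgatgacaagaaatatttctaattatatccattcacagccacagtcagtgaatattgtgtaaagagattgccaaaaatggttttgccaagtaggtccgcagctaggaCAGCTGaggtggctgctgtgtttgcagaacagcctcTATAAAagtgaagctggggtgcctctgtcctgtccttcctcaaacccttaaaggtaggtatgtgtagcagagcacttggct
Pgam2: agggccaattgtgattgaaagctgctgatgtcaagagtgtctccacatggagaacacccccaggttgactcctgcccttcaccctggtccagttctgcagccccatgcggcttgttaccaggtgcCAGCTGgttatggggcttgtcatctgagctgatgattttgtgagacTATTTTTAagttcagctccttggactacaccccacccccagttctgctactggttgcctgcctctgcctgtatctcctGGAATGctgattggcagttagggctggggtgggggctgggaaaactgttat
Rpl19: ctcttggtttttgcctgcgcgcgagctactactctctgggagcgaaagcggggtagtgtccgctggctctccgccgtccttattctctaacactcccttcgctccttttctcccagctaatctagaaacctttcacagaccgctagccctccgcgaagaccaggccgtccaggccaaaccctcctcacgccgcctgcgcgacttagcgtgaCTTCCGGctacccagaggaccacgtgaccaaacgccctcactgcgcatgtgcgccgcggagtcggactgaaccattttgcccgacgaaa

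The contrast between the tissues opened with their most abundant products. Alb, serum albumin, the main protein of plasma, stood at 90710, 89030, 83380, 74710 and 98140 CPM in livers 1 to 5 and at 166, 744, 1327, 318 and 878 CPM in muscles 1 to 5, a log2 ratio of 6.99 ± 0.63 (edgeR adjusted p 2.10e-07). Myh4, the myosin heavy chain of the fastest fibres, stood at 0, 0, 1.98, 7.16 and 32.8 CPM in the livers and 32060, 37410, 36540, 25220 and 44680 CPM in the muscles, -12.17 ± 1.31 (edgeR adjusted p 1.42e-06). Neither pair of ranges came near to overlapping, and liver 5 and muscle 3 held the most of the other tissue's gene. Without liver 5 the ratio of Myh4 was -14.03. After Alb, the liver genes of highest CPM past 4-fold, a ranking that favours long transcripts, were Trf (transferrin), Apoe, Selenop, Scd1, Ahsg, C3, Serpina1b, Gc, Cyp2e1, Mup10 and Pzp, of which Serpina1b and Mup10 belong to families of near-identical genes whose reads cannot be divided with certainty. After Myh4, those of muscle were Acta1 (skeletal actin), Atp2a1 (the calcium pump of fast fibres), Tpm1, Tnnt3, Ckm, Aldoa, Mylpf, Gapdh, Actn3, Pvalb and Myl1. All 30 plasma protein genes examined were higher in liver, with a median log2 ratio of 6.88 against 0.007 over all tested genes, from 5.37 for C3, the central complement protein, to 9.11 for F9, a clotting factor, which without muscle 3 had 10.14. Together they took 173000 to 185000 CPM in the livers, against 568 to 2760 CPM in the muscles.

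Glucose entry used different genes in the 2 tissues. Slc2a2, the transporter that lets glucose cross the hepatocyte membrane in both directions, stood at 522, 504, 417, 409.8 and 428 CPM in the livers and 0.18, 6.24, 5.84, 3.65 and 4.2 CPM in the muscles (6.89 ± 0.40, edgeR adjusted p 2.12e-09). Slc2a4, the transporter that insulin brings to the surface of muscle and fat cells, stood at 0.413, 0.201, 0.33, 0.298 and 1.66 CPM in the livers and 433, 342, 335, 421 and 392 CPM in the muscles (-9.53 ± 0.28, edgeR adjusted p 3.91e-12, or -10.13 without liver 5). The ranges of both genes were far apart, in opposite directions. Hk2, the hexokinase of insulin-responsive tissue, averaged 1.72 ± 0.753 CPM in liver and 225 ± 32.7 CPM in muscle (SD, n = 5 each). Hk1 (3.91 CPM in liver and 6.69 CPM in muscle) and Slc2a1 (5.68 and 6.57 CPM) were low in both tissues and were not called, except that Hk1 without muscle 3 was called at -1.04.

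To compare forms without any scaling between tissues, the log2 ratio of the counts of 2 forms was taken inside each library, for 41 pairs of enzymes, transporters or subunits. In 40 of the 41 pairs the 5 livers did not overlap the 5 muscles, each with a two-sided exact permutation p of 0.00794, the smallest that splits of 10 libraries into 5 and 5 allow. The remaining pair was Bcat1 over Bcat2, branched-chain aminotransferases, with an exact permutation p of 0.175 and Bcat1 at 0 counts in every liver. Levels of single genes did not overlap for 57.2% of all tested genes, and no such share was taken over other gene pairs. Most pairs are known liver and muscle forms, and they were chosen with earlier results of these data known. In 39 pairs the first-named form, listed as the liver form where one is known, had a larger share in every liver than in any muscle. Per transcript length, taken from the longest annotated transcript, the more abundant of the pair changed from one form to the other in 36 of the 41 pairs. The 34 liver forms of these pairs were themselves higher in liver in 28 cases, higher in muscle in 3 and not called in 3, and of the 34 muscle forms 32 were higher in muscle. Over all tested genes, 33.3% were higher in liver, 34.2% higher in muscle and 32.5% not called.

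**Figure D2:**
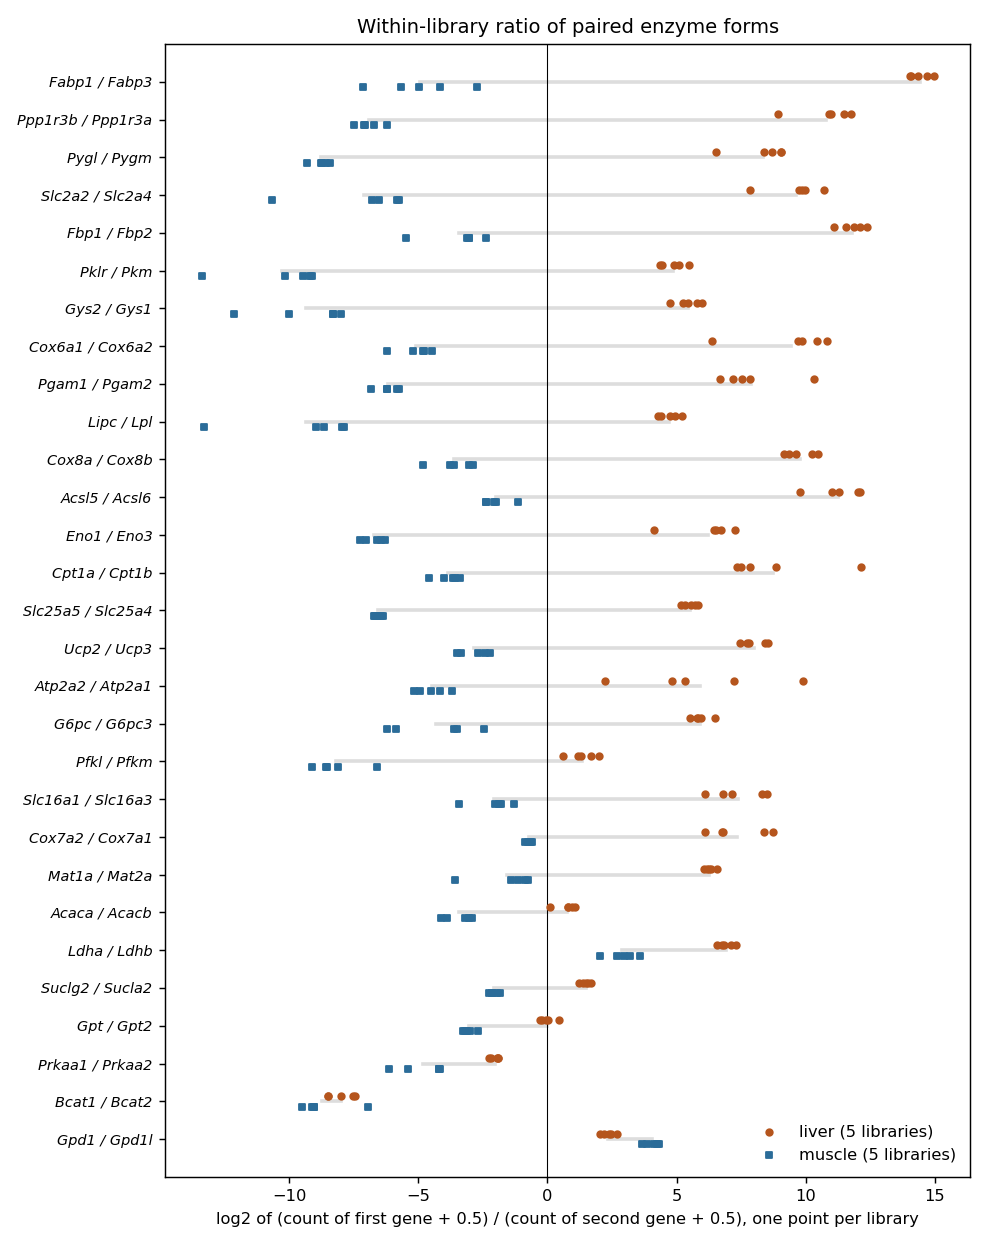
Log2 ratio of the counts of 2 paired genes within each library, with 0.5 added to each count, for 29 of the 41 pairs, ordered by the shift between tissues; circles are the 5 livers and squares the 5 muscles, and grey bars join the tissue means. The circles lie to the right of the squares without overlap in 27 pairs, Bcat1/Bcat2 overlap, and Gpd1/Gpd1l lie the other way round.

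Along glycolysis, the livers and muscles did not overlap in the ratio of forms of pyruvate kinase, phosphoglycerate mutase, enolase or phosphofructokinase. Pklr, the liver pyruvate kinase, over Pkm, the muscle form, had log2 ratios of 5.09, 4.90, 5.47, 4.43 and 4.36 in the livers and -13.38, -9.12, -9.17, -9.46 and -10.14 in the muscles, and per length Pklr made up 95.9% of the pair in liver and 0.0957% in muscle. Pgam1 over Pgam2 (phosphoglycerate mutase) averaged 7.90 ± 1.41 in the livers and -6.16 ± 0.42 in the muscles (SD, n = 5 each), and Eno1 over Eno3 (enolase) 6.22 ± 1.21 and -6.71 ± 0.41. Phosphofructokinase, the committing step, was less one-sided in liver: Pfkl made up 66.2% of Pfkl and Pfkm per length in liver, 53.8% to 75.7% by library, and 0.32% in muscle. Pfkl itself averaged 33.9 ± 6.09 CPM in liver and 11.1 ± 9.15 CPM in muscle, with muscle 3 at 27.1 CPM just under the lowest liver, and without muscle 3 its ratio was 2.24 against 1.63 with all libraries. Pfkm averaged 13.7 ± 4.81 CPM in liver and 2654 ± 160.2 CPM in muscle.

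Lactate dehydrogenase showed another pattern. Ldha, the subunit that favours making lactate, was higher in muscle, at 472, 496, 357, 497 and 452 CPM in the livers and 2352, 2281, 2702, 2182 and 2419 CPM in the muscles (-2.39 ± 0.17), and so was Ldhb, the subunit that favours using it, at 3.31, 3.01, 3.63, 4.48 and 3.74 CPM in the livers and 303, 352, 226, 529.5 and 266 CPM in the muscles (-6.54 ± 0.27). Because Ldhb differed more, Ldha made up 98.9% of the pair per length in liver and 83.6% in muscle. Slc16a3, which exports lactate, had 3 counts in all livers together and a muscle over liver ratio of CPM of 828 (95% interval 283 to 4020). Slc16a1, the transporter of the same family that also imports lactate, was not called, at 45.2 CPM in liver and 35.6 CPM in muscle. Pdk4, a kinase induced by fasting that keeps pyruvate from becoming acetyl-CoA, averaged 9.93 ± 3.99 CPM in liver and 1749 ± 330.2 CPM in muscle (-7.44 ± 0.32).

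Glycogen storage was divided in the same way. Gys2 over Gys1, the liver and muscle glycogen synthases, had log2 ratios of 5.97, 5.45, 5.25, 4.73 and 5.77 in the livers and -12.13, -8.29, -8.31, -10.002 and -7.98 in the muscles. Pygl over Pygm, the phosphorylases that break glycogen down, had 9.06, 9.02, 8.68, 8.39 and 6.51 in the livers and -8.77, -8.43, -9.32, -8.72 and -8.55 in the muscles. Liver 5 was the lowest liver for the phosphorylases, still far above every muscle. The proteins that tether phosphatase 1 to glycogen were as separate: Ppp1r3b averaged 311 ± 27.5 CPM in liver and 2.74 ± 0.881 CPM in muscle, whereas Ppp1r3a had 1 count in all livers together and a muscle over liver ratio of 5960 (95% interval 1070 to 235000). Its count was in liver 5, without which it was at least 1720-fold lower in liver. Ppp1r3c, a further tether, was higher in muscle, 49.9 CPM in liver and 702 CPM in muscle. Of the kinase that activates phosphorylase, the liver subunits Phka2 and Phkg2 made up 86.7% and 84.7% of their pairs per length in liver and 1.18% and 1.44% in muscle.

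Glucose production was a liver trait at its own steps and shared elsewhere. Of 9 tested genes of gluconeogenesis, 7 were higher in liver, none in muscle and 2 were not called, with a median log2 ratio of 3.25. Over all tested genes the shares were 33.3%, 34.2% and 32.5%. G6pc, the phosphatase that frees glucose for release, stood at 366, 441, 346, 294 and 379 CPM in the livers and 0.54, 4.61, 9.05, 0.608 and 3.73 CPM in the muscles (6.68 ± 0.45, edgeR adjusted p 8.55e-09), or 7.29 without muscle 3. Pck1, the cytosolic PEP carboxykinase that starts the pathway, stood at 1406, 1244, 921, 879.6 and 1741 CPM in the livers and 32.4, 26.6, 32.4, 13.7 and 13.8 CPM in the muscles (5.70 ± 0.33), and Fbp1, fructose bisphosphatase, averaged 866 ± 181 and 8.53 ± 4.28 CPM. Muscle had its own bisphosphatase, Fbp2, at 43.7, 84.1, 55.1, 95.8 and 84.8 CPM, with 3 counts in all livers and a muscle over liver ratio of 411 (95% interval 140 to 1990), or 903 (162 to 35700) without liver 1, which held 2 of the 3. G6pc3, the widely expressed phosphatase, went the other way, 5.89 CPM in liver and 48.2 CPM in muscle (-3.04 ± 0.16). The cytosolic enzymes Mdh1 and Got1, which also run the shuttle that carries reducing equivalents into mitochondria, were of like level, with 95% intervals of -0.68 to -0.02 and -0.58 to 0.29. Mdh1 was called higher in muscle without liver 3 (-0.40) or muscle 3 (-0.42).

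Urea synthesis and the breakdown of amino acids belonged to liver throughout: all 26 tested genes were higher there, with a median log2 ratio of 7.06. Cps1, the first enzyme of the urea cycle, averaged 3196 ± 484 CPM in liver and 23.1 ± 17.5 CPM in muscle, Ass1 2013 ± 618 and 23.2 ± 12.4 CPM, and Arg1, which releases urea, 1249 ± 83.3 and 9.992 ± 9.54 CPM. The ratio of Arg1 was 6.99, or 7.66 without muscle 3. The least one-sided was Hal, histidine ammonia lyase, at 3.94. Methionine adenosyltransferase, which makes the methyl donor of the cell, changed form. Per length, Mat1a made up 98.7% of Mat1a and Mat2a in liver and 27.3% in muscle, 7.46% to 36.8% by muscle library. Mat1a had 62358 counts over the livers and 477 over the muscles, and Mat2a had 832 and 1291.

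Bile acid genes were higher in liver in 16 of 17 cases, with a median of 6.72. Cyp7a1, the rate-limiting enzyme of bile acid synthesis, stood at 329, 406, 175, 301 and 316 CPM in the livers and 0, 2.44, 1.75, 0.304 and 3.03 CPM in the muscles, and Abcb11, the pump that exports bile acids, averaged 632 ± 147 and 4.06 ± 2.58 CPM. The exception was Abcb4, known in liver as the carrier that moves phosphatidylcholine into bile. It stood at 226, 192, 161, 180 and 184 CPM in the livers and 181, 204, 218, 222 and 195 CPM in the muscles, overlapping, with a ratio of -0.11 ± 0.12 and a 95% interval of -0.36 to 0.14. Genes of drug and retinoid handling were higher in liver in 16 of 18 cases (median 6.77), Gstp1 and Aox1 being of like level. Without muscle 2, Gstp1 was called higher in muscle at -0.39.

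Fat synthesis leaned to liver with wide variation among the livers. Of 26 genes of fatty acid and cholesterol synthesis 24 were higher in liver and 2, Me1 and Gpam, were not called, with a median of 3.85. Scd1, the desaturase that makes monounsaturated fat, stood at 6729, 5649, 19980, 2032 and 3953 CPM in the livers and 618, 235, 340.3, 120.4 and 221 CPM in the muscles (4.64 ± 0.64, edgeR adjusted p 1.70e-05). Fasn, fatty acid synthase, stood at 838, 642, 1401, 436 and 619.9 CPM in the livers and 60.3, 17.4, 61, 6.69 and 26.6 CPM in the muscles. Liver 3 was the highest and liver 4 the lowest of the livers for both, and without liver 3 the ratio of Scd1 was 3.92. Acaca, the acetyl-CoA carboxylase that supplies fat synthesis, was higher in liver (2.74 ± 0.30), whereas Acacb, whose product restrains fat oxidation, was called higher in muscle (-1.26 ± 0.36, edgeR adjusted p 0.00693). Acacb stood at 108, 73.7, 290.4, 54.3 and 78.9 CPM in livers 1 to 5 and 255, 317, 306, 256 and 316 CPM in the muscles, so that liver 3 lay inside the muscle range, and its ratio was -1.86 without liver 3. For Me1, malic enzyme, liver 3 stood at 613 CPM and the other livers at 180 to 385, against 269 to 379 in the muscles. Without liver 3, Gpam was called higher in muscle at -0.53.

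Fatty acids were bound and admitted to mitochondria through separate genes, whereas the acyl-CoA synthetase of highest level was the same in both tissues. Fabp1, the liver binding protein, averaged 3069 ± 364 CPM in liver and 26.2 ± 17.8 CPM in muscle. Fabp3, the form of heart and muscle, had 0 counts in all 5 livers and 445, 786, 341, 966 and 584 CPM in the muscles, at least 3874-fold lower in liver with a floor of 3 counts over the livers. Lipc over Lpl, hepatic lipase and lipoprotein lipase, averaged 4.71 ± 0.38 in the livers and -9.35 ± 2.26 in the muscles. Cpt1a over Cpt1b, the forms of the carnitine palmitoyltransferase that admits fatty acids to mitochondria, had log2 ratios of 7.32, 12.14, 8.84, 7.47 and 7.86 in the livers and -3.65, -3.38, -4.59, -4.005 and -3.58 in the muscles. Of 5 listed long-chain acyl-CoA synthetases, which activate fatty acids, Acsl1 had the highest level per length in both tissues, 171 CPM per kilobase in liver and 71.2 in muscle, and it was called higher in liver (1.26). Acsl5 over Acsl6, of the same family, averaged 11.24 ± 0.94 in the livers and -1.99 ± 0.51 in the muscles.

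Beyond that gate, 17 of 25 tested genes of fatty acid oxidation were higher in liver, 3 in muscle and 5 were not called, beside 33.3%, 34.2% and 32.5% of all tested genes. Their median was only 0.72, and 10 were of like level, beside 21.3% of all tested genes. The large ratios in favour of liver were those of peroxisomal enzymes, such as Acaa1b at 6.64 (7.38 without muscle 3) and Ehhadh at 5.42. The ratios of 2 mitochondrial dehydrogenases that open the chain-shortening cycle lay near 0, Acadm at 0.23 (95% interval -0.10 to 0.56) and Acadvl at 0.03 (-0.27 to 0.32), neither called. The 3 genes higher in muscle were Hadha (-0.43) and Hadhb (-1.26), the subunits of the mitochondrial trifunctional protein, and Crat (-3.27), which buffers acetyl-CoA as acetylcarnitine. The call of Hadha was lost without liver 4 (-0.38). Oxct1, which is needed to use ketone bodies, averaged 5.68 ± 1.95 CPM in liver and 464 ± 40.02 CPM in muscle. Bdh1 (3.61) and Acat1 (0.97), which act on both paths, were higher in liver.

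Most genes of the respiratory chain were higher in muscle, with list medians of -1.58 to -1.17. Of 36 nuclear genes of complex I, 35 were higher in muscle and 1, Ndufa7, was not called, with a median of -1.27, and the ratios ran only from -2.22 (Ndufb5) to -0.30. Without muscle 1, Ndufa7 was called as well, at -0.39. Of 32 nuclear genes of complexes III to V, 31 were higher in muscle and none in liver (median -1.17). All 13 protein genes of the mitochondrial genome were higher in muscle (median -1.58), from -1.92 for mt-Nd4l to -1.04 for mt-Co1, and together took 74300 to 83200 CPM in the livers, against 169000 to 216000 CPM in the muscles. Of 23 genes of the citric acid cycle and its entry, 20 were higher in muscle and 2 in liver, beside 34.2% and 33.3% of all tested genes. Those 2 were Pcx at 1.82, which fills the cycle and starts gluconeogenesis, and Suclg2 at 1.69, the GTP-forming subunit of succinyl-CoA ligase. Its ATP-forming partner Sucla2 was higher in muscle, at 136, 136, 110.1, 132 and 133 CPM in the livers and 455, 479, 434, 517 and 465 CPM in the muscles. Idh3a, the regulated isocitrate dehydrogenase, had the ratio furthest from 0 on the list at -4.27.

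Inside cytochrome c oxidase, 3 subunits came in tissue forms with ratios far from those of the rest of the complex. Cox8b had 0 counts in all 5 livers and 191, 179, 220.3, 278 and 201 CPM in the muscles, at least 1327-fold lower in liver, and its counterpart Cox8a averaged 122 ± 14.8 CPM in liver and 18 ± 6.02 CPM in muscle. Cox6a2 had 3 counts in all livers and a muscle over liver ratio of 2970 (95% interval 1020 to 14400). All 3 counts were in liver 5, and without it Cox6a2 was at least 2570-fold lower in liver. Cox6a1 averaged 144 CPM in liver and 15.6 CPM in muscle. For subunit 7a, Cox7a1 was a muscle gene (0.62, 0.402, 0, 0.895 and 0 CPM in the livers and 116, 173, 165, 204 and 157 CPM in the muscles), while Cox7a2 was not a liver gene: it stood at 78.3, 55.6, 70.2, 71.9 and 68.5 CPM in the livers and 77, 103, 102, 129 and 86.7 CPM in the muscles, overlapping in muscle 1, and was called higher in muscle (-0.53 ± 0.15, edgeR adjusted p 0.00599). Per length, Cox7a2 made up 99.3% of the pair in liver and 31.1% in muscle. The carriers that exchange ATP for ADP were separate too, with Slc25a5 over Slc25a4 at 5.51 ± 0.28 in the livers and -6.56 ± 0.15 in the muscles. Ucp3 had 0 counts in every liver, at least 1451-fold lower than in muscle, and Ucp2 was of like level (35.1 CPM in liver and 32.7 CPM in muscle).

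Some named exceptions ran against the usual division. Gpd1, the glycerol phosphate dehydrogenase often counted as a liver enzyme, was higher in muscle, at 174, 220.4, 250.2, 196 and 233 CPM in the livers and 467, 533, 749, 482 and 530.5 CPM in the muscles (-1.36 ± 0.16, edgeR adjusted p 3.59e-06), and its share over Gpd1l was larger in every muscle. Gpt2, one of the 2 alanine aminotransferases, was not called (239 CPM in liver and 203 CPM in muscle), though without liver 4 it was called higher in liver at 0.35. Gpt, the other one, was higher in liver with all libraries (3.25). Of the energy sensor AMP kinase, the muscle subunit Prkag3 had 0 counts in all livers, at least 986-fold lower than in muscle, Prkaa2 was higher in muscle (-2.08), and Prkaa1 was not called (17.6 CPM in liver and 12.4 CPM in muscle).

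The contractile lists had the medians furthest from 0 of all the lists. All 14 genes of the fast sarcomere were higher in muscle (median -12.44), as were all 11 of the slow sarcomere (-10.64), all 21 shared by both fibre types (-10.42) and all 24 tested genes of excitation and calcium release (-9.93, or -9.74 with genes at 0 in liver set to their bound). Acta1 stood at 0, 0.603, 2.97, 9.85 and 29.9 CPM in the livers and 25880, 27750, 25590, 25640 and 26720 CPM in the muscles, and Ckm, muscle creatine kinase, at 0, 0.201, 1.32, 2.69 and 12 CPM in the livers and 15920, 16210, 18560, 14690 and 18730 CPM in the muscles. Liver 5 was the highest liver for both. Without liver 5 the medians were -14.42 for the fast, -11.46 for the slow and -11.04 for the shared list, and the ratio of Acta1 was -13.02 against -11.68 with all libraries. Of the other myosin heavy chains, Myh1 stood at 1849, 3108, 1958, 2854 and 1684 CPM in the muscles, Myh2 at 2003, 2035, 1925, 3265 and 1864 CPM and Myh7, the slow form, at 889, 1063, 512, 1629 and 773 CPM. Slow sarcomere genes together took 77.8 to 91.8 CPM in the livers, against 4710 to 10300 CPM in the muscles, and muscle 4 was the highest and muscle 3 the lowest of the muscles.

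The ratios nearest 0 in these lists belonged to Tpm3 (-3.27), a tropomyosin also used in the cytoskeleton of other cells, on the slow list, to Csrp3 (-3.54), a protein of the Z disc, on the shared list, and to Asph (-3.25) on the calcium list. Csrp3 stood at 18, 26.7, 17.1, 34.6 and 22.8 CPM in the livers and 165, 287, 119, 559 and 266 CPM in the muscles, so it was found in every liver. Atp2a2, the calcium pump of slow fibres and of the endoplasmic reticulum of most cells, stood at 97.8, 106, 125, 113 and 97.2 CPM in the livers and 1020, 1291, 682, 1529 and 806 CPM in the muscles (-3.31 ± 0.23), against -12.17 for Atp2a1, which without liver 5 had -13.69. Trdn, triadin of the calcium release unit, had 1 count in all livers together and a muscle over liver ratio of 30400 (95% interval 5460 to 1200000). That count was in liver 5, and over the other 4 livers, with 0 counts, Trdn was at least 8790-fold lower than in muscle. Ryr1, the release channel, averaged 1.3 ± 1.84 CPM in liver and 2990 ± 188 CPM in muscle. Of 16 genes of the dystrophin complex, which ties the fibre to its surroundings, 14 were higher in muscle (median -4.63), beside 34.2% of all tested genes. Dmd, dystrophin, was at 33.1 CPM in liver and 187 CPM in muscle, Utrn, its relative utrophin, was of like level (41.3 and 38.6 CPM), and Sntb1, a syntrophin, was higher in liver (2.55).

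The synthesis and the uptake of creatine were divided. Gamt, which finishes the synthesis of creatine, averaged 204 ± 40.6 CPM in liver and 12.3 ± 3.06 CPM in muscle, and Slc6a8, which imports creatine, 2.1 ± 0.591 and 138 ± 8.83 CPM. Gatm, the first enzyme of the synthesis, was low in both and not called (9.998 and 8.56 CPM). Of 11 genes of energy buffering, 8 were higher in muscle (median -6.02), beside 34.2% of all tested genes. They included Mb, myoglobin, at -12.56, or -13.18 without liver 4. Car3, carbonic anhydrase 3, was abundant in both tissues at 3281, 2576, 2915, 2473 and 2558 CPM in the livers and 3986, 4138, 5076, 5114 and 4030 CPM in the muscles, and was called higher in muscle (-0.69 ± 0.19, edgeR adjusted p 0.00575).

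**Figure D3:**
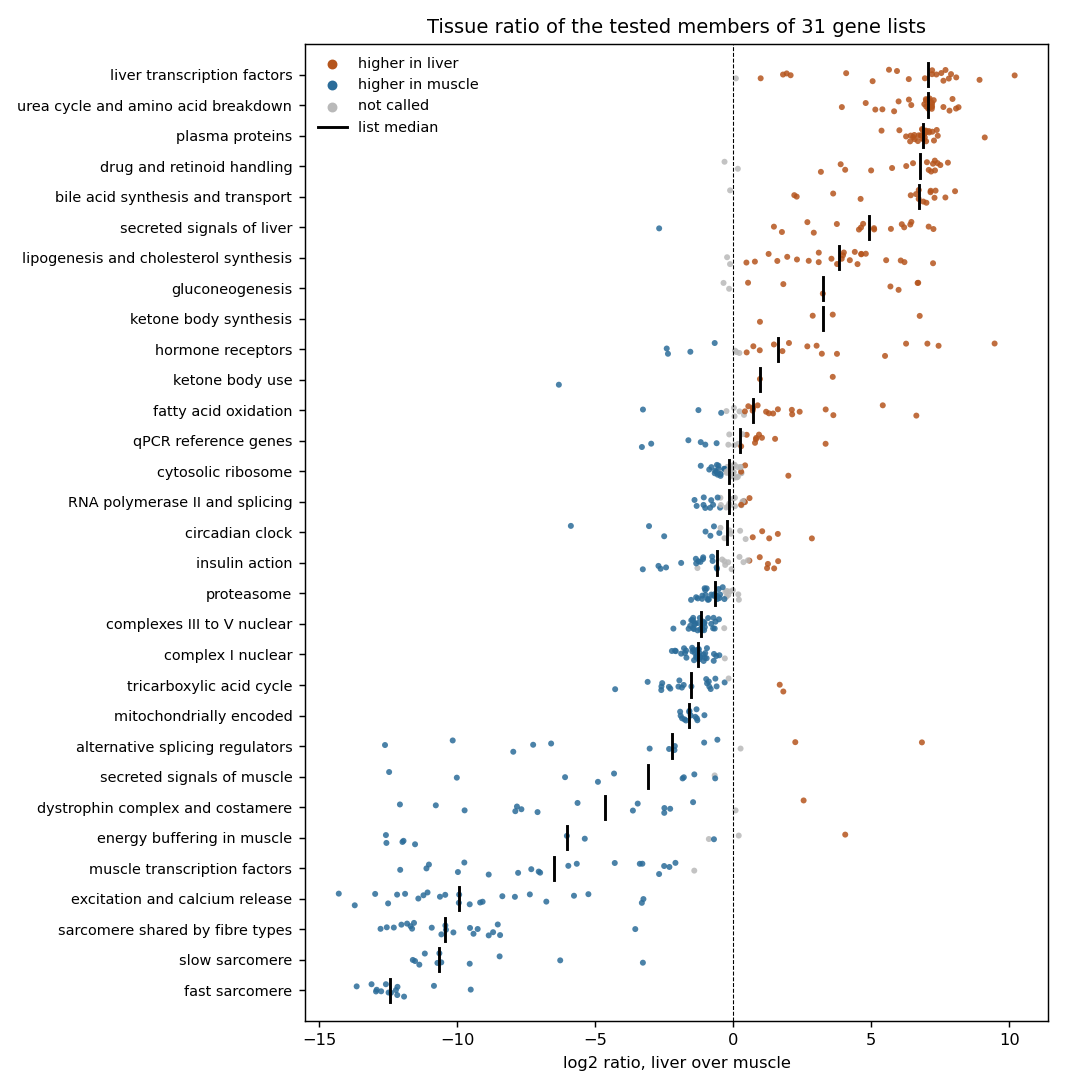
Log2 ratio of liver over muscle for the tested members of 31 gene lists, 1 point per gene, coloured by call, with a black bar at the median of each list and lists ordered by that median. Lists of liver products lie near 7, contractile lists near -10 to -12, mitochondrial lists between -1 and -2, and ribosome, polymerase and clock lists close to 0.

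The transcription factors listed for each tissue were as separate as its enzymes. Of 22 factors known from liver, 21 were higher there and 1, Cebpb, was of like level, with a median of 7.08, or 6.54 with genes at 0 in muscle set to their bound. Hnf4a, the nuclear receptor central to hepatocyte identity, stood at 463, 483, 492, 549.5 and 569.7 CPM in the livers and 1.62, 1.63, 7.3, 2.13 and 3.26 CPM in the muscles (7.36 ± 0.32). Foxa3 had 23.8, 29.7, 41.2, 38.2 and 57.3 CPM in the livers and 0 counts in all 5 muscles, at least 257-fold higher in liver. Of 20 tested genes on the list of muscle factors, 19 were higher in muscle and 1, Hmga1, was not called, with a median of -6.48, or -5.82 with bounds. Hmga1 had a ratio of -1.41, and it was called higher in muscle without muscle 3 (-1.73). Mef2c, which acts with the myogenic factors, averaged 4.63 ± 1.21 CPM in liver and 715 ± 73.2 CPM in muscle. Myf6, the myogenic factor of mature fibres, had 0 counts in every liver and 54.3, 87.9, 51.9, 69.3 and 91.6 CPM in the muscles, at least 440.5-fold lower in liver, and Myod1 had 0 counts there and 10.1, 5.7, 6.13, 8.52 and 4.89 CPM in the muscles, at least 43.8-fold lower.

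Regulators of alternative splicing followed the muscle side. Of 14 tested, 11 were higher in muscle, 2 in liver and 1 was not called (median -2.22), beside 34.2%, 33.3% and 32.5% of all tested genes. Rbfox1, a splicing regulator of nerve and muscle, had 0 counts in every liver and 208, 204, 211, 164 and 218 CPM in the muscles, at least 1247-fold lower in liver. Mbnl1, which drives adult splicing patterns in muscle, averaged 95 ± 5.35 CPM in liver and 415 ± 26.7 CPM in muscle. The 2 higher in liver were Esrp2, an epithelial splicing factor, at 88.8 CPM in liver and 0.746 CPM in muscle with a ratio of 6.84 (8.27 without muscle 5), and Ptbp1, a general repressor of exons, at 82 and 17.2 CPM.

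Secreted signals followed the tissue they are known from. Of 18 tested signals of liver, 17 were higher in liver (median 4.91). Igf1, the growth factor made under growth hormone, stood at 412, 525, 438, 642 and 474 CPM in the livers and 26.3, 20.3, 16.3, 9.12 and 21.9 CPM in the muscles (4.71 ± 0.25), and Agt, the precursor of angiotensin, averaged 672 ± 35.3 and 19.6 ± 6.54 CPM. Fst, follistatin, went the other way at 1.09 CPM in liver and 6.85 CPM in muscle. Hamp and Hamp2, hepcidins, are near-identical, so their split is uncertain. Hamp stood at 392, 419, 904, 1196 and 184 CPM in the livers and 2.88, 1.9, 24.8, 6.08 and 2.1 CPM in the muscles. Of 10 tested signals of muscle, 9 were higher in muscle and 1, Metrnl, was not called (median -3.07). Mstn, myostatin, which limits muscle growth, had 1 count in all livers and 84.4, 96.5, 71.5, 53.5 and 137 CPM in the muscles, a muscle over liver ratio of 1590 (95% interval 285 to 62900). The count was in liver 5, without which Mstn was at least 460-fold lower in liver. Ostn, musclin, had 0 counts in every liver and 210.5, 124, 202, 181 and 188 CPM in the muscles, at least 1124-fold lower in liver.

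Among 22 tested hormone receptors, 15 were higher in liver, 4 in muscle and 3 were not called (median 1.63), beside 33.3%, 34.2% and 32.5% of all tested genes. Gcgr, the glucagon receptor, stood at 195, 183, 160.2, 176 and 152 CPM in the livers and 0.72, 0.271, 1.46, 1.52 and 2.56 CPM in the muscles (7.04 ± 0.27). Adra1b, an adrenaline receptor that mobilises liver glycogen, had 1 count in all muscles and a liver over muscle ratio of 1260 (95% interval 225 to 49700). The count was in muscle 3, without which Adra1b was at least 349-fold higher in liver. The adiponectin receptors divided, with Adipor2 at 1.78 and Adipor1 at -1.55. Insr, the insulin receptor, was higher in liver, at 168, 168, 145, 160 and 117 CPM in the livers and 106, 77.3, 72.4, 67.8 and 64.8 CPM in the muscles (0.96 ± 0.15, edgeR adjusted p 6.91e-05).

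Below the receptor more genes of the insulin pathway were higher in muscle than in liver. Of 30 genes of insulin action, 6 were higher in liver, 15 in muscle and 9 were not called, with a median of -0.59. Over all tested genes the shares were 33.3%, 34.2% and 32.5%. Across the settings of the fit, 2 to 8 of these genes were called higher in liver and 6 to 16 in muscle. Irs1, a docking protein of the receptor, averaged 24.4 ± 4.85 CPM in liver and 58.2 ± 14.8 CPM in muscle. Irs2 was not called, at 10.3, 27.3, 22.1, 4.18 and 4.98 CPM in the livers and 9.53, 9.22, 26.6, 45.3 and 82.8 CPM in the muscles, a wide scatter in both, and it was called higher in muscle without liver 2 (-1.71), muscle 1 (-1.54) or muscle 2 (-1.54). Akt2, the kinase that passes the signal on to glucose uptake, stood at 99.6, 95.8, 98.2, 93.4 and 93.8 CPM in the livers and 253, 262, 231, 246 and 233 CPM in the muscles (-1.35 ± 0.10), whereas Akt1 was of like level with a 95% interval of -0.42 to 0.31. Tbc1d1, a brake on the glucose transporter that Akt releases, averaged 10.4 ± 3.36 and 98 ± 27.7 CPM, and Grb10, an inhibitor of the receptor, 7.67 ± 4.49 and 52 ± 11.9 CPM. Those higher in liver included Pik3r1, the regulatory subunit of the lipid kinase (1.23).

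Among genes of basic machinery, those of the ribosome were mostly of like level and those of the proteasome mostly higher in muscle. Of 47 genes of the cytosolic ribosome, 41 were of like level, beside 21.3% of all tested genes, and the median was -0.15, although 17 were called higher in muscle and 3 in liver. The largest exception was Rpl3, which stood at 262, 226, 143, 158 and 254 CPM in the livers and 67.1, 40.7, 17.8, 70.2 and 63.9 CPM in the muscles (2.00 ± 0.31). Its muscle paralogue Rpl3l, chosen after its values were seen, had 3 counts in all livers and 371, 436, 440.4, 419 and 428 CPM in the muscles, a muscle over liver ratio of 2430 (95% interval 830 to 11800), or 5330 (957 to 211000) without liver 1, which held 2 of the 3. Of 31 proteasome genes, 23 were higher in muscle, beside 34.2% of all tested genes, none in liver and 8 were not called, with a median of -0.65. Of 27 genes of RNA polymerase II and splicing, 4 were higher in liver, 10 in muscle and 13 were not called (median -0.17), and over all tested genes the shares were 33.3%, 34.2% and 32.5%. Among like-level genes above 100 CPM in both tissues, of which there were 210, the 8 with a ratio nearest 0 were Rps4x, Sf3b1, Rps2, Cisd1, Rps9, Rpl23, Osbpl9 and Pcbp2. Rps4x stood at 265, 226, 241, 254 and 259 CPM in the livers and 285, 243, 236, 269 and 209 CPM in the muscles, with a 95% interval of -0.25 to 0.25.

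Some genes used as references for quantitative PCR differed between the tissues and others were not called. Of 20 tested, 9 were higher in liver, 6 in muscle and 5 were not called, beside the same 33.3%, 34.2% and 32.5% of all tested genes, and 8 were of like level, beside 21.3%. Gapdh stood at 1172, 869.9, 1044, 730.4 and 776 CPM in the livers and 5591, 7555, 7743, 7510 and 7540 CPM in the muscles (-2.97 ± 0.23). B2m, the light chain of class I histocompatibility molecules, averaged 1298 ± 95.4 and 127 ± 31.7 CPM, and Tfrc, the transferrin receptor, 12.9 ± 2.57 and 129.5 ± 27.8 CPM. Eef2, Actb, Rpl13a, Polr2a and Tubb5 were not called, with 95% intervals of -0.51 to 0.16 for Eef2, -0.09 to 0.45 for Actb, -0.18 to 0.27 for Rpl13a, -0.44 to 0.15 for Polr2a and -0.02 to 0.68 for Tubb5.

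**Figure D4:**
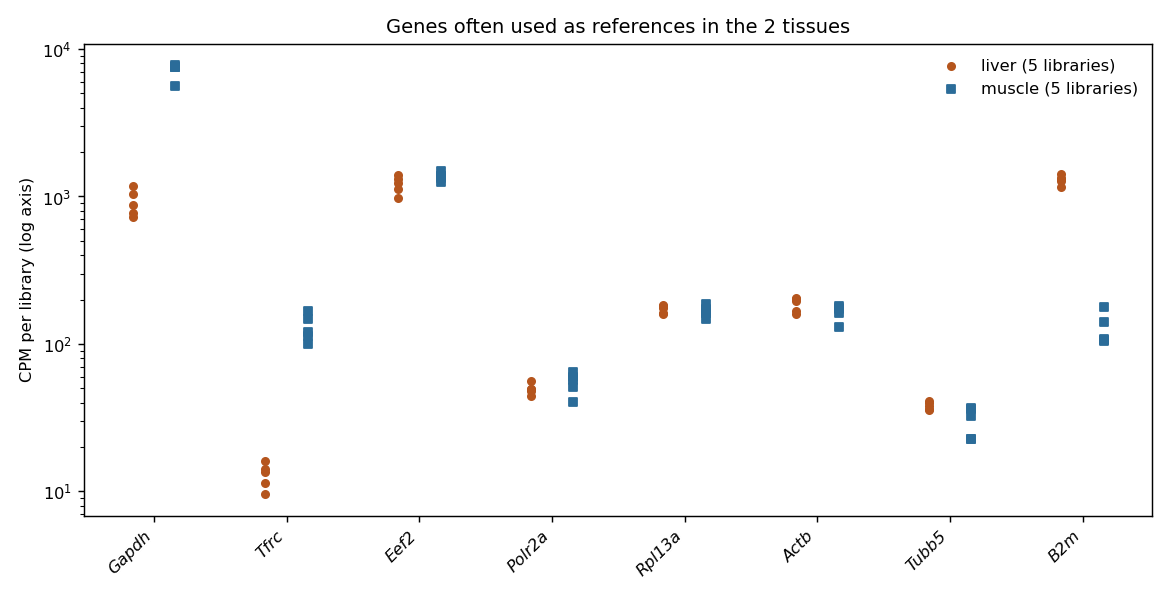
CPM per library (log axis) of 8 genes often used as references, with circles for the 5 livers and squares for the 5 muscles. Gapdh lies 7.83-fold higher in muscle and B2m 10.2-fold higher in liver, while the points of Eef2, Polr2a, Rpl13a and Actb overlap.

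Most genes of the circadian oscillator overlapped between the tissues, though they were called about as often as all tested genes. Of 18 tested, 5 were higher in liver, 7 in muscle and 6 were not called, beside 33.3%, 34.2% and 32.5% of all tested genes. The ratios ran from -5.88 for Bhlhe41 to 2.85 for Hlf. The 2 tissues did not overlap for 3 of them, Hlf, Nfil3 and Bhlhe41, or 3 of 18 beside 57.2% of all tested genes. Arntl, the activator of the clock loop, stood at 1.45, 1, 6.26, 5.97 and 2.49 CPM in the livers and 6.12, 48.5, 17.5, 40.8 and 24 CPM in the muscles, with a ratio of -3.05 ± 0.59. Per2, one of its repressors, stood at 43.6, 43, 17.5, 13.7 and 32.4 CPM in the livers and 25.2, 4.88, 8.17, 2.13 and 18.9 CPM in the muscles (1.31 ± 0.51, edgeR adjusted p 0.0363), and its call was lost without liver 1, 2 or 5 or muscle 2, 3 or 4, with ratios of 1.03 to 1.31. Muscle 1 had the least Arntl and the most Per2 of the muscles. The time of day of the killing of each animal is not in the labels.

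Other cell types in the tissue pieces left their marks. Of 12 tested markers of macrophages and Kupffer cells, the resident macrophages of liver, 10 were higher in liver and 2, Lyz2 and Cd68, were not called. Over all tested genes 33.3% were higher in liver and 32.5% were not called. Together the list took 681 to 787 CPM in the livers, against 133 to 251 CPM in the muscles. Clec4f, found on Kupffer cells, averaged 124 ± 20.5 CPM in liver and 0.395 ± 0.456 CPM in muscle. Stab2, of the sinusoid endothelium, averaged 70.8 ± 11.4 and 6.31 ± 5.07 CPM, while Pecam1, of endothelium in general, averaged 28.5 ± 4.93 and 70.0 ± 10.4 CPM. The 10 endothelial markers split 3 to liver, 6 to muscle and 1 not called, beside 33.3%, 34.2% and 32.5% of all tested genes. Of 10 tested markers of stellate cells and fibroblasts 2 were higher in liver and 8 in muscle (median -2.03). The summed list averaged 306 CPM in liver and 3760 CPM in muscle. It includes Des, desmin, which had its lowest ratio (-9.53) and is also among the sarcomere genes examined here. The sum is therefore not one of stellate cells and fibroblasts alone. Lrat, which stores retinol in stellate cells, had 22.9, 27.3, 31, 27.8 and 32.8 CPM in the livers and 0 counts in all muscles, at least 192-fold higher in liver.

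In muscle, 5 of 6 tendon markers, all 5 tested markers of smooth muscle and pericytes, all 5 tested fat cell markers and 5 of 6 of Schwann cells and nerve were higher. Col1a1 and Col1a2, the chains of type I collagen, averaged 1.33 ± 0.615 and 8.29 ± 3.86 CPM in liver and 133 ± 51.3 and 256 ± 115 CPM in muscle. Adipoq, adiponectin of fat cells, had 0 counts in every liver and 60.4, 39.6, 28.9, 13.4 and 12.8 CPM in the muscles, and Cfd, adipsin, had 0 counts and 116, 99.3, 48.7, 46.8 and 41.7 CPM, so muscle 1 had the most of both. Fat markers together took 7.46 to 11.7 CPM in the livers, against 208 to 560 CPM in the muscles. Lymphocyte and neutrophil markers were too low to test, with 2.49 to 6.37 and 1.24 to 6.21 CPM in the livers and at most 4.58 and 2.04 CPM in the muscles. The part of these cells in the ratios above was not tested.

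Each tissue also held low levels of the other's main products. In the muscles, 30 plasma protein genes stood at a median of 0.212%, 0.865%, 1.49%, 0.409% and 0.980% of their mean level in liver, in muscles 1 to 5, and 26 urea cycle and amino acid genes at 0.277%, 0.618%, 1.56%, 0.235% and 1.08%. In the livers, 35 sarcomere genes stood at a median of 0%, 0.00294%, 0.00742%, 0.0119% and 0.147% of their mean level in muscle, in livers 1 to 5. Liver 5 was the highest by far, and 1 of the 35 genes was at 0 there. Muscle 3 was the highest muscle on both lists, muscle 1 the lowest on the first and muscle 4 on the second. In the other 3 groups the plasma protein level was 0.138% to 1.53% over 15 muscles, with a median of 0.317%. The sarcomere level there was 0% to 0.0467% over 14 livers, with a median of 0.00272%.

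Of 927 genes called higher in liver that averaged at least 100 CPM there, 298 had a log2 ratio between 6 and 8 and 20 a ratio above 8, whereas of 956 such genes of muscle 164 had a ratio of -8 or lower. Alb, G6pc, Cps1 and Ahsg, chosen after their values were seen, were each lowest in muscle 1 and highest in muscle 3 among the muscles. Without liver 1, muscle 2 and muscle 3, the plasma protein list had a median ratio of 7.47 and the liver transcription factors 7.75. The part of these transcripts in the ratios was not tested.

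**Figure D5:**
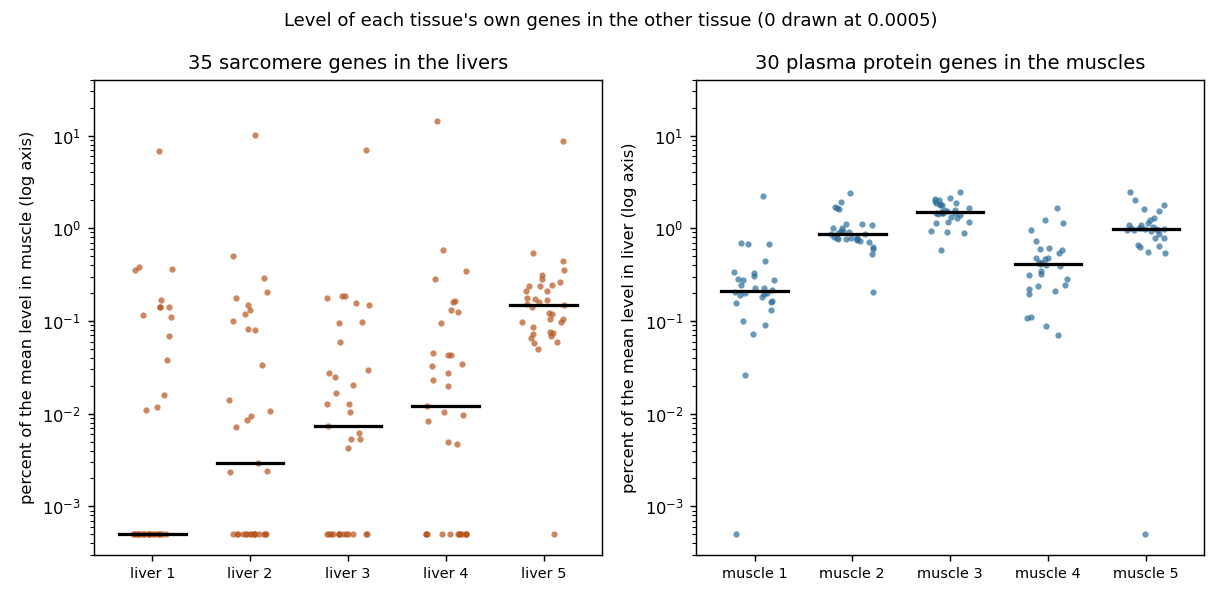
Left, level of 35 sarcomere genes in each of the 5 livers as a percent of their mean in the 5 muscles; right, level of 30 plasma protein genes in each of the 5 muscles as a percent of their mean in the 5 livers (log axes, 1 point per gene, bar at the median, 0 drawn at 0.0005). Liver 5 has a median of 0.147% against at most 0.0119% in livers 1 to 4, and the muscles have medians from 0.212% to 1.49%.

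The same contrast was fitted separately in the other 3 genotype and diet groups, whose libraries are not shared with these. In Ins2+/- mice on diet A 59.4% of 11519 tested genes were called in either direction, in Ins2+/+ mice on diet B 60.0% of 12006, and in Ins2+/- mice on diet B 55.7% of 12666. Of the genes called here and tested there, 83.0%, 83.3% and 80.2% were also called in the same direction, and 0 were called in the opposite one. Among genes past 4-fold the shares were 97.8%, 96.5% and 96.0%. The isozyme pairs did not overlap in 40, 40 and 39 of 41 cases, and 40 pairs had the same sign in all 4 groups. For Gpd1 over Gpd1l, the pair that ran the other way, the shift between tissue means was -1.17, -1.44 and -1.25 on the log2 scale in those groups, with livers and muscles overlapping in Ins2+/- mice on diet B. Abcb4 had ratios of 0.02, 0.20 and 0.43 there, Hadhb -1.32, -1.52 and -1.23, Rpl3 2.35, 2.00 and 1.54 and Insr 0.73, 0.89 and 1.01.

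A test of the difference of the tissue ratio itself, over 13714 genes, called 1 gene (0.00729%), with 626 genes at an unadjusted p below 0.05. Ces2e, a carboxylesterase of liver and intestine, had a log2 ratio that differed here from the mean of the other 3 groups by -2.995 ± 0.538 (edgeR adjusted p 0.0331). Its liver level was similar throughout, with a mean of 184.9 CPM here by library totals (133 to 223) against 164, 188 and 171 CPM in the others. Its muscle level averaged 3.60 CPM here (0.539 to 5.75) against 0.575, 0.394 and 0.399 CPM. Among these muscles Ces2e was highest in muscles 3 and 2 and lowest in muscle 4. The plasma protein level given above was 0.212%, 0.865%, 1.49%, 0.409% and 0.980% in muscles 1 to 5 here. In the 15 muscles of the other groups that level ran from 0.138% to 1.53%, with a median of 0.317%. The part of these transcripts in the difference of Ces2e was not tested. The next genes in that direction, Cyp2c67 and Cyp4f15, both cytochromes P450 of liver, had an edgeR adjusted p of 0.0816 and were not called. With the replicate number as a block 0 genes were called and with DESeq2 33. Leaving out 1 of the 10 libraries gave 10 calls without muscle 1, 1 without liver 3 or muscle 4 and 0 without any of the other 7.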

How the data were processed

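Each table held kallisto estimated counts per Ensembl gene, not whole in 15.6% of values, as the authors deposited them; kallisto 0.42.3, DESeq2 and the GRCm38 build are named in the submitters' processing notes, without their roles, and the annotation release is not given in the sources used here. Per the labels' protocols, libraries were made from 400 ng of total RNA with a TruSeq v2 kit, whose reads keep no strand, and run over 2 lanes not given per library, so overlapping or antisense genes and near-identical copies cannot be divided with certainty. GENCODE M21 gave a symbol to 46005 of 46517 identifiers (98.9%), and identifiers without one held 0.449% of counts.

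Estimated counts were rounded and tested with edgeR 4.0.16 in R 4.3.3 (quasi-likelihood, TMM scaling, filterByExpr by tissue, Benjamini-Hochberg over all tested genes), 5 livers against 5 muscles without a block; limma 3.58.1 and DESeq2 1.42.0 served as alternatives. Standard errors were the size of the ratio over the square root of F, and intervals cover 95%. Per-length shares used the longest annotated transcript. A count of 0 allows up to 3 counts (0.597 to 1.24 CPM per liver, 0.556 to 0.862 CPM per muscle), and floors and intervals of single counts cover counting error only. The labels name each library as a replicate of its group without naming the animal, so p-values measure the spread between these samples.

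The genes named are Ins1 and Ins2, the 12 called genes of highest CPM past 4-fold in each tissue, the isozyme families, up to 4 called members per list and direction, members against their list, the reference genes, the 8 genes nearest a ratio of 0 and up to 3 genes per direction whose ratio differed between groups. Some list members are not reported here, though the counts over lists include them. Other members named were chosen after their values were seen. The members and lists were chosen with earlier results of these data known.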

Additional observations from a re-analysis of the deposited data

Results flagged for a closer look

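Among 396 sets of 5 CPM values and 56 sets of 5 within-library ratios of paired genes, 50 and 8 held a library whose gap to its nearest neighbour was over 0.71 of the whole range. Chance alone does so in about 1 of 20 sets of values that all lie above 0, a share that does not hold for 7 of the 50, in which only 1 library had any count and so stood apart by construction, 5 of them in liver 5. That library was liver 5 in 23 sets, muscle 1 in 8, liver 3 in 8, muscle 3 in 7, muscle 4 in 6, liver 1 in 4 and liver 4 in 2.

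Liver 5 lay above the other livers for Actn3 at 9.96 against 0 to 0.659, Atp2a1 at 20.4 against 0 to 4.29, Ckm at 12 against 0 to 2.69 and Cox6a2 at 1.25 against 0 CPM. There too were Eno3 at 8.3 against 0.597 to 1.98, Mstn at 0.415 against 0, Myh1 at 3.32 against 0 and Myh2 at 2.08 against 0 to 0.201 CPM. The list went on with Myh4 at 32.8 against 0 to 7.16, Myh7 at 2.49 against 0.201 to 0.659, Myl1 at 4.57 against 0 to 0.33 and Mylpf at 4.57 against 0.298 to 1.32 CPM. The same held for Ppp1r3a at 0.415 against 0, Pvalb at 3.32 against 0 to 0.33, Pygm at 4.57 against 0.804 to 1.32 and Ryr1 at 4.57 against 0.201 to 0.827 CPM. Of the rest there were Slc2a4 at 1.66 against 0.201 to 0.413, Tbc1d1 at 16.2 against 7.44 to 9.89, Tnnt3 at 12 against 0 to 1.79 and Trdn at 0.415 against 0 CPM. Liver 3 lay above the other livers for Acacb at 290.4 against 54.3 to 108, Acsl5 at 727 against 369.5 to 454, Ass1 at 3098 against 1570 to 1899 and Scd1 at 19980 against 2032 to 6729 CPM. Liver 3 lay below the other livers for Bcat2 at 28.4 against 36.2 to 38.2, Cyp2e1 at 3904 against 6097 to 6522, Oxct1 at 2.31 against 5.81 to 7.03 and Sucla2 at 110.1 against 132 to 136 CPM. Liver 1 lay above the other livers for Acadvl at 409.6 against 319 to 344, Acsl6 at 0.413 against 0, Cd68 at 14.1 against 6.63 to 7.58 and Cox6a1 at 189 against 118 to 138 CPM. Liver 4 lay above the other livers for Gys1 at 5.37 against 3.31 to 3.82 CPM. Liver 4 lay below the other livers for mt-Co1 at 19360 against 22320 to 23490 CPM.

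Muscle 1 lay below the other muscles for Fbp1 at 0.899 against 10.03 to 10.9, Gapdh at 5591 against 7510 to 7743 and Pdk4 at 1167 against 1846 to 1989 CPM. Muscle 3 lay above the other muscles for Adra1b at 0.292 against 0, Gpd1 at 749 against 467 to 533, Hamp at 24.8 against 1.9 to 6.08 and Hamp2 at 22.8 against 1.44 to 5.17 CPM. There too were Hnf4a at 7.3 against 1.62 to 3.26 and Pfkl at 27.1 against 4.26 to 9.49 CPM. Muscle 3 lay below the other muscles for Mef2c at 587 against 719.6 to 760.5 CPM. Muscle 4 lay above the other muscles for Cisd1 at 142 against 112 to 118, Gamt at 17.6 against 10.02 to 11.7 and Myh2 at 3265 against 1864 to 2035 CPM. Muscle 4 lay below the other muscles for Aox1 at 21 against 35.4 to 36.1, Phkg2 at 0.304 against 6.42 to 8.09 and Rbfox1 at 164 against 204 to 218 CPM.

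On the log2 scale of count ratios, liver 5 lay below the other livers for Eno1 over Eno3 at 4.13 against 6.44 to 7.27, Pygl over Pygm at 6.51 against 8.39 to 9.06 and Cox6a1 over Cox6a2 at 6.35 against 9.71 to 10.84. On the log2 scale of count ratios, muscle 1 lay below the other muscles for Slc2a2 over Slc2a4 at -10.65 against -6.79 to -5.75, Pklr over Pkm at -13.38 against -10.14 to -9.12, Fbp1 over Fbp2 at -5.47 against -3.11 to -2.38 and Lipc over Lpl at -13.30 against -8.97 to -7.85. Muscle 1 also had Mat1a over Mat2a at -3.58 against -1.42 to -0.74. Ins2 had 91 counts in liver 1, against 1 to 4 in the other livers, and 4593 in muscle 3, against 3 to 87 in the other muscles.

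Ces2e was singled out by the test of the difference between groups: its log2 ratio of liver over muscle differed from the mean of the other 3 groups by -2.995, as described above, in a test over 13714 genes.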

How the results depend on the processing

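With other scalings (RLE, upper quartile, library totals, without mitochondrially encoded genes), other tools (DESeq2, limma-voom), other filters, all 39 libraries in 1 fit, without the 3 libraries at 5 CPM or more of islet hormones other than insulin or without any 1 of the 10, 3564 to 4422 genes were called higher in liver, 3643 to 4393 higher in muscle and 2170 to 2533 were of like level. Testing against a 2-fold difference called 2305 and 2144 genes, and an adjusted p below 0.01 called 3226 and 3405. A narrower like-level bound of 0.5 on the log2 scale left 451 of 2429 genes. Of 165 called genes named here, 151 kept their call and direction in all alternatives of this fit, none reversed, and no list median changed sign. Across the alternatives for the pairs, 40 or 41 of 41 counted as separate. Separate meant no overlap of livers and muscles. With the replicate number as a block it meant instead that all 5 same-numbered differences had the same sign. Same-numbered livers and muscles had correlations of their deviations of -0.047 to 0.095, and differently numbered ones of -0.142 to 0.070. With 5 libraries per tissue, these values cannot decide whether the numbers mark pairs. With the replicate number as a block (replicate block), 3704 and 3685 genes were called and 2280 were of like level, and the test of the difference between groups called 0 genes. That test called 33 with DESeq2 and 0 to 10 with 1 library left out; the cause was not tested. A count of 0 over 5 livers or muscles allows up to 3 counts, so ratios of genes absent from one tissue are bounds set by depth.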
